A study of Mus musculus with 3 samples.

Results

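The genes described here are 10 genes that mouse hepatocytes transcribe for secretion into blood or urine: Alb, Apoa1, Apoa2, Apoc1, Mup3, Mup5, Serpina1b, Serpina1c, Fga and Ahsg. All probe sets whose only gene symbol in the platform annotation is 1 of these 10 were taken, which gave 13 of the 12422 probe sets compared. The study hybridised lung RNA to 3 Affymetrix mouse expression arrays, 1 for each of 3 groups. The LLC-bearing lung came from mice carrying LLC, a mouse line of Lewis lung carcinoma, under the skin of the back, the B16-bearing lung from mice carrying B16, a mouse line of melanoma, in the same place, and the control lung from normal mice. Per the series description, the tumour-bearing groups model a lung that has not yet received tumour cells. Strain, age, sex, the time after injection and the number of animals behind each array are not given in the labels. With 1 array per group there is no replicate error and no test, so each difference describes these arrays and not the conditions.

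Hepatocytes make most plasma proteins. Their plasma protein genes are driven together by transcription factors such as HNF1, HNF4 and the C/EBP family, and the adult lung is not known as a main source of them. Apoc1 is also transcribed by macrophages. The 10 genes were chosen because their signal was high in the LLC-bearing lung, so that pattern is described here and supports nothing by itself.

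Values are linear, background-subtracted signals after 1 scaling factor per array. Signals below a floor of 23.6, the 40th percentile of all scaled values, have no order among themselves and were set to the floor before log2 was taken. A fold against such a signal is a lower bound and is written as at least that many fold. Levels of different probe sets are not compared, because each binds its target with its own strength. Above the floor lay 12 of the 13 probe sets in the LLC-bearing lung, 5 on the B16-bearing array and 6 on the control array.

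In the LLC-bearing against the control lung, 12 of the 13 were higher by 2-fold or more, where 2.70% of all 12422 probe sets were, and 0 were at least 2-fold lower, where 1.89% were. At least 4-fold higher were 9 (0.467% of all probe sets), and at least 8-fold higher were 6, out of 14 such probe sets on the array (0.113%). Against the B16-bearing lung 11 of the 13 were at least 2-fold higher in the LLC-bearing lung, where 3.33% of all probe sets were. In the B16-bearing against the control lung 0 of the 13 were at least 2-fold higher, where 2.19% of all probe sets were, and 0 were at least 2-fold lower, where 3.18% were. Only 7 of the 13 were above the floor on at least 1 of those arrays, and the others had a difference of 0 by construction. For so few probe sets, counts of 0 are close to these shares. The comparisons share arrays, and the members were chosen on the first of them, so these counts are read only as a description. RNA of a whole lung cannot tell more cells of a type from more RNA per cell.

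Alb encodes serum albumin, the most abundant protein of plasma and a carrier of fatty acids and hormones. Its only probe set had a signal of 1327 on the LLC-bearing array, against 12.8 on the B16-bearing array and −1.2 on the control array. Both other lungs were below the floor, so Alb was at least 56.2-fold higher in the LLC-bearing lung than in either (log2 difference of 5.81). It had the highest difference from control of all 12422 probe sets. The promoter of Alb is shown because it holds a match to an HNF1 core and to a C/EBP motif. It is taken from RefSeq (GRCm38.p6, chr5:90460620-90460919, plus strand, 250 bases before to 50 after the start), written 5′ to 3′, with the letters of the motif matches in capitals.
Alb: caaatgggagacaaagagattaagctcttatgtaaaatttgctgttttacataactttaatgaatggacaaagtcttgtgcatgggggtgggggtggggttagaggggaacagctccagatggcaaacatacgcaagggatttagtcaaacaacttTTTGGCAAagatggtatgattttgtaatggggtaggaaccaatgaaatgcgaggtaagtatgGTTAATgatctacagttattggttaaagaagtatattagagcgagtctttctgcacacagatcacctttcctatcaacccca

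The apolipoproteins were less uniform. Apoa1 encodes the main protein of high-density lipoprotein, which carries cholesterol back to the liver. Its signal was 167 on the LLC-bearing array, against −0.691 on the B16-bearing and −62 on the control array, at least 7.08-fold higher than either. Apoa2, a second protein of the same particle, had 99.3 on the LLC-bearing array and 56.6 on the B16-bearing array, against 30.1 on the control array, on the brighter of its 2 probe sets. All 3 arrays were above the floor there, and the LLC-bearing lung was 3.30-fold above control but only 1.76-fold above the B16-bearing lung. The second Apoa2 probe set was below the floor throughout, with 22.9 on the LLC-bearing array, −28.6 on the B16-bearing array and −37.9 on the control array. It is the member with no measured difference, and the name of that probe set marks a design that can bind a family of related sequences.

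Apoc1 encodes a small apolipoprotein of triglyceride-rich particles and of high-density lipoprotein. Its signal was 267 on the LLC-bearing array and 118 on the B16-bearing array, against 112 on the control array. The gene was thus above the floor in all 3 lungs, 2.39-fold higher in the LLC-bearing than in the control lung (log2 difference of 1.26), while the B16-bearing lung was 1.05-fold above control. Between the B16-bearing and control lungs, which leave out the LLC-bearing array, the robust SD of the log2 difference (from the median absolute deviation) was 0.431 for probe sets with a mean signal of 100 to 200 and 0.531 from 50 to 100. For dimmer probe sets, with a mean signal of 25 to 50, it was wider, at 0.686. That spread holds real differences as well as noise.

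**Figure D1:**
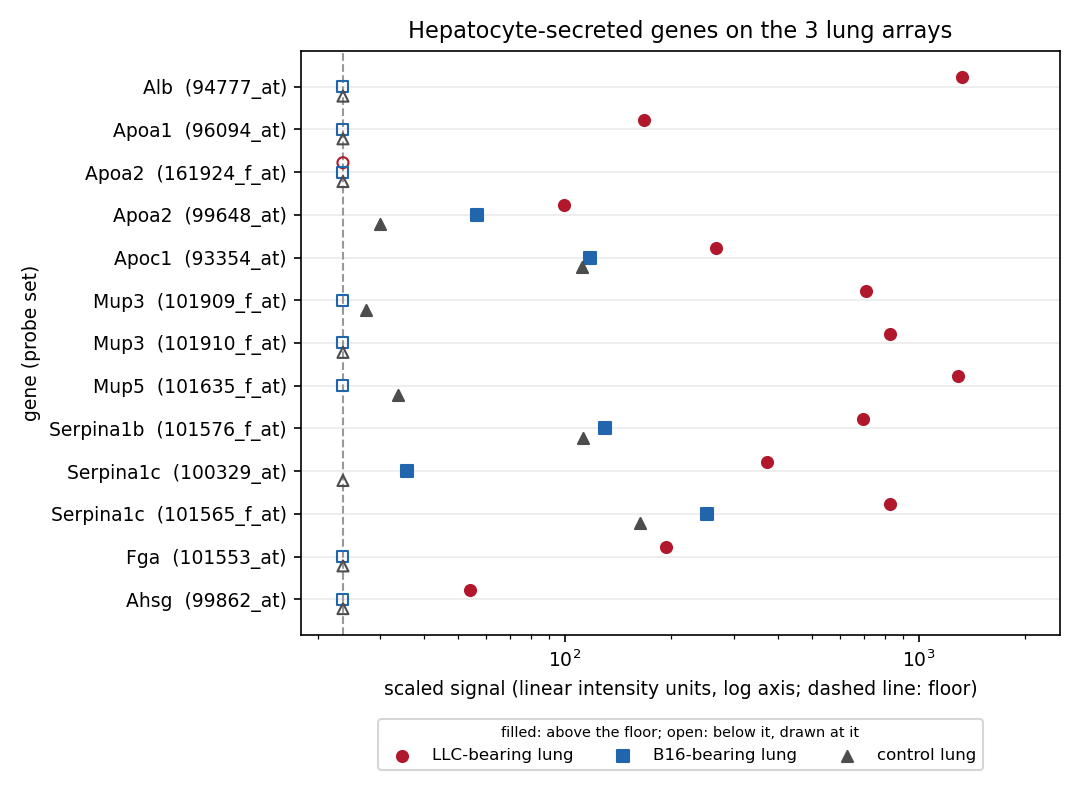
Scaled signal (log axis) of the 13 probe sets in the LLC-bearing lung (circles), B16-bearing lung (squares) and control lung (triangles), 1 array each. The dashed line is the floor of 23.6, and open symbols are signals below it drawn at it. In 12 of the 13 rows the LLC-bearing lung has the highest signal, and in the remaining row, an Apoa2 probe set, all 3 arrays are below the floor.

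The major urinary proteins carry pheromones in mouse urine and are made by the liver as a family of near-identical proteins. Mup5 had a signal of 1293 on the LLC-bearing array and 8.1 on the B16-bearing array, against 33.7 on the control array. The control signal was just above the floor, and the LLC-bearing lung was 38.4-fold higher than it and at least 54.8-fold higher than the B16-bearing lung. The first of the 2 Mup3 probe sets had 708 on the LLC-bearing array and 21.8 on the B16-bearing array, against 27.4 on the control array. The other had 830 on the LLC-bearing array and −21.4 on the B16-bearing array, against 2.0 on the control array. Compared with control they were 25.8-fold and at least 35.2-fold higher in the LLC-bearing lung. All 3 urinary protein probe sets have names that mark a family design, so their signal cannot be assigned to Mup3 or Mup5 rather than to another member of the family.

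Serpina1b and Serpina1c are mouse alpha-1-antitrypsin genes, whose products inhibit neutrophil elastase. Serpina1b had a signal of 695 on the LLC-bearing array and 130 on the B16-bearing array, against 113 on the control array, 6.16-fold higher in the LLC-bearing than in the control lung. For Serpina1c the brighter probe set, of a family design, had 826 on the LLC-bearing array and 252 on the B16-bearing array, against 163 on the control array. Both of these probe sets were above the floor on all 3 arrays. The second Serpina1c probe set, whose name carries no mark of a family design, had 373 on the LLC-bearing array and 35.7 on the B16-bearing array, against −0.9 on the control array. The fold over control was thus 5.06 on the first and at least 15.8 on the second. Serpina1e, a further gene of this cluster, had 645 on the LLC-bearing array and 114 on the B16-bearing array, against 107 on the control array, also on a family design.

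The promoters of the alpha-1-antitrypsin members are shown because the copies are so alike and both hold the HNF1 core near the start. Of 298 aligned bases 276 were identical, or 92.6%. Both come from RefSeq (GRCm38.p6, minus strand, 5′ to 3′ along the gene), at chr12:103738140-103738439 for Serpina1b and chr12:103904901-103905200 for Serpina1c, with motif matches in capitals.
Serpina1b: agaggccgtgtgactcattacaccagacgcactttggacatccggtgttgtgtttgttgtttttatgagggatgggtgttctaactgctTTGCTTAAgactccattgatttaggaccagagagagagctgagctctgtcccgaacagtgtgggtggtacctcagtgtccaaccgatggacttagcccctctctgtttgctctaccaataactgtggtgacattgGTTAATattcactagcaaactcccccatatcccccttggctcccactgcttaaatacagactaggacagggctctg
Serpina1c: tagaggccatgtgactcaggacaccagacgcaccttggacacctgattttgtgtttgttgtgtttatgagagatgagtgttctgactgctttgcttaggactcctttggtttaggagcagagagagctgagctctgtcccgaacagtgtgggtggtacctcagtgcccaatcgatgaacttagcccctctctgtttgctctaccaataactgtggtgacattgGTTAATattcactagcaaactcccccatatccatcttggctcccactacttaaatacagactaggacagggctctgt

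Fga encodes the alpha chain of fibrinogen, the protein that forms the clot. Its signal was 193 on the LLC-bearing array, against 6.6 on the B16-bearing and 7.1 on the control array, at least 8.20-fold higher than either. The genes of the other fibrinogen chains lie beside it on chromosome 3 in RefSeq's gene order. Fgg had 59.1 on the LLC-bearing array, against −4.94 on the B16-bearing and 3.2 on the control array. Fgb had 47.6 on the LLC-bearing array, against −15.6 on the B16-bearing and −2.1 on the control array. All 3 fibrinogen chains were therefore above the floor in the LLC-bearing lung and below it on the other arrays, Fgg by at least 2.50-fold and Fgb by at least 2.02-fold. The Fga promoter is shown as one with both motifs (RefSeq, GRCm38.p6, chr3:83025903-83026202, plus strand, 5′ to 3′, motif matches in capitals).
Fga: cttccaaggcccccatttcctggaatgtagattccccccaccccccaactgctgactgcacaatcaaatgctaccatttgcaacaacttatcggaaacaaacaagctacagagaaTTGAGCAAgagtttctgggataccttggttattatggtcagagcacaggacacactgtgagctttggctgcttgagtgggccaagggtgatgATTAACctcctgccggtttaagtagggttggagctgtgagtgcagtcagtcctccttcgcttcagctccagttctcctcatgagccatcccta

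Ahsg encodes fetuin-A, a plasma protein that binds calcium phosphate. Its signal was 54.0 on the LLC-bearing array, against −50.4 on the B16-bearing and −28.8 on the control array, at least 2.29-fold higher than either. The log2 difference from control was at least 1.20. Under a higher floor of 71.3, the 60th percentile of all values, Ahsg was not measured. The log2 difference of Apoa2 from control was then at least 0.48, a lower bound because its control signal was below that floor. Under a floor of 100 the log2 differences of Apoa1 and Fga were at least 0.74 and at least 0.95. These bounds did not reach the 2-fold call, but their size is set by the height of the floor.

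**Figure D2:**
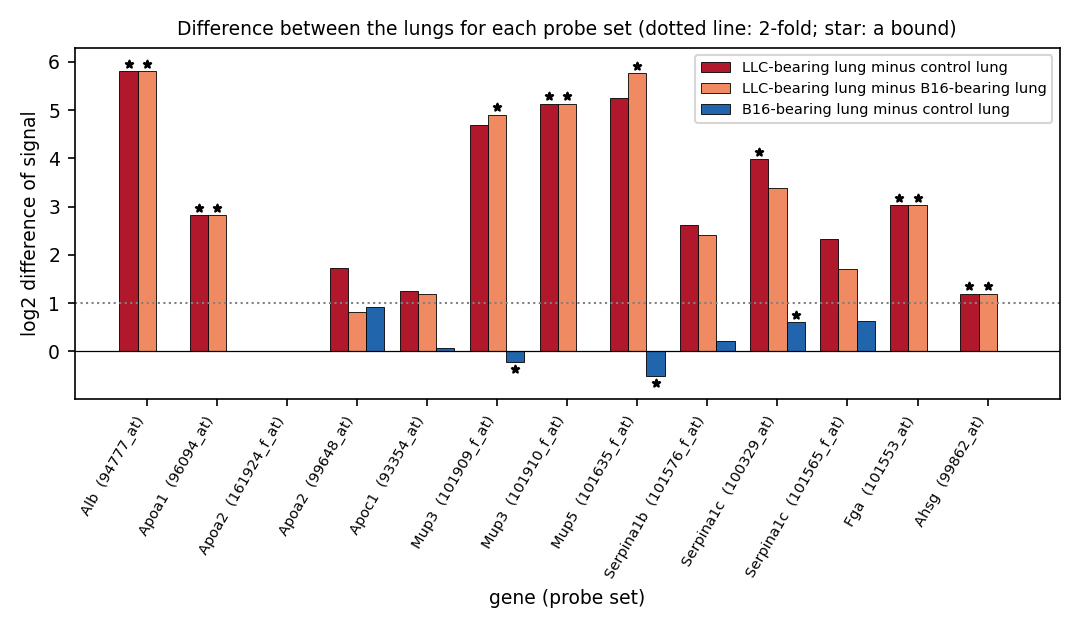
Log2 difference of the signal for each of the 13 probe sets, as LLC-bearing minus control lung, LLC-bearing minus B16-bearing lung and B16-bearing minus control lung (bars, 1 array per group). Stars mark lower bounds, where the dimmer array was below the floor, and the dotted line is 2-fold. Alb, Mup3 and Mup5 reach 4.69 or more on this scale in both LLC comparisons, and no bar of the B16-bearing minus control comparison reaches 2-fold.

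The members thus differed among themselves in size. Over the 10 genes, each by its brightest probe set, the log2 difference of the LLC-bearing from the control lung had a median of 2.72 and ran from 1.20 to 5.81, where the median of all 8251 genes was 0. Lower bounds made up 5 of the 10 values, among them both ends of the range, Ahsg and Alb. Of all genes 2104 were below the floor on all 3 arrays and at 0 by construction, and the scaling centres the brighter probe sets on 0. Against the B16-bearing lung the median was 2.62, with a range of 0.81 to 5.81, and 6 of the 10 values were lower bounds. Alb, Fga, Apoa1 and Ahsg, with the brighter Mup3 probe set, were above the floor in the LLC-bearing lung alone. Apoc1, Serpina1b, Apoa2 and the brighter Serpina1c probe set were above it in every lung. In the B16-bearing against the control lung the log2 differences of the 10 genes ran from −0.51 for Mup5, a bound, to 0.91 for Apoa2. Only 5 of the 10 were above the floor on at least 1 of those arrays, and the others were at 0 by construction.

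Without the probe sets of family, shared or relaxed design, 7 remained, of Alb, Apoa1, Apoa2, Apoc1, Serpina1c, Fga and Ahsg. All 7 were at least 2-fold higher in the LLC-bearing lung against control, where 2.70% of all probe sets were, and 6 of them against the B16-bearing lung, where 3.33% were. This alternative was added after the data were seen.

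Other plasma and urinary protein genes of hepatocytes were described from a list of 88 symbols, of which 65 had a probe set of their own. In the LLC-bearing against the control lung 10 of the 65 were at least 2-fold higher and 0 lower, against 2.87% higher and 2.17% lower of all 8251 genes. The 10 were Hpx, Serpina1e, Kng1, Saa2, Orm2, Plg, Fgg, Apcs, Ambp and Fgb. The median log2 difference of the 65 was 0.08. Of the 65, 23 were below the floor on all 3 arrays, so that their difference was 0 by construction and they could not reach 2-fold. In the B16-bearing against the control lung 5 were at least 2-fold higher (2.34% of all genes) and 0 lower. Those 5 were Apoa5, Apom, C8g, Cp and Angptl4, none of them among the 10. Above the floor in the LLC-bearing lung alone were 12 of the 65, where 2.17% of all genes were. Against the B16-bearing lung 9 of the 65 were at least 2-fold higher in the LLC-bearing lung (3.59% of all genes) and 3 lower (2.47%), Apom, C8g and F12. At least 2-fold higher than in both other lungs were 8 of the 65, where 116 of all 8251 genes were.

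Among these, Hpx encodes hemopexin, which clears haem from plasma. Its signal was 225 on the LLC-bearing array and 30.4 on the B16-bearing array, against 12.5 on the control array, at least 9.53-fold higher in the LLC-bearing than in the control lung. Its second probe set had 109 on the LLC-bearing array, against 1.68 on the B16-bearing and 1.5 on the control array. Kng1, the precursor of bradykinin, had 161 on the LLC-bearing array and 42.7 on the B16-bearing array, against 38.6 on the control array. Saa2, an acute-phase serum amyloid A protein, had 97.0 on the LLC-bearing array, against 15.1 on the B16-bearing and 8.1 on the control array. Plg encodes plasminogen, the precursor of the clot-dissolving enzyme plasmin. It had 64.1 on the LLC-bearing array, against 6.12 on the B16-bearing and 12.6 on the control array, and its second probe set was at least 2.81-fold higher than in either. Ambp, which encodes alpha-1-microglobulin and bikunin, was at least 2.16-fold higher and F5, coagulation factor V, at least 1.93-fold higher than in either other lung. Apcs, serum amyloid P, was 2.40-fold above control and 1.91-fold above the B16-bearing lung.

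Of this list, 3 genes named for their control signal, well above the floor, show members of the list that the control lung also held. They were less than 2-fold different in each comparison with control. Hp, haptoglobin, had 2248 on the LLC-bearing array and 2870 on the B16-bearing array, against 1910 on the control array. F7, coagulation factor VII, had 370 on the LLC-bearing array and 283 on the B16-bearing array, against 321 on the control array. Its dimmer probe set had 82.8 on the LLC-bearing array and 73.9 on the B16-bearing array, against 83.0 on the control array. Igf1, an insulin-like growth factor, had 195 on the LLC-bearing array and 183 on the B16-bearing array, against 255.5 on the control array, while a dimmer probe set of Igf1 was below the floor throughout. Ttr, which encodes transthyretin, a major liver product, was below the floor in all 3 lungs, with 20.3 on the LLC-bearing array, 19.7 on the B16-bearing array and 7.6 on the control array.

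Enzymes and other proteins that stay inside hepatocytes were taken from a list of 91 symbols, 63 of them with a probe set. In the LLC-bearing against the control lung 6 were at least 2-fold higher (2.87% of all genes) and 1 lower (2.17%). The 6 were Cps1, Akr1c6, Cyp2c29, Fabp1, Fbp1 and Pck1. The median of the 63 was 0, and 23 of them were below the floor on all 3 arrays and so had a difference of 0 by construction. Other genes of the list were bright in the control lung. Aldh1a1 had 2753 on the LLC-bearing array and 2812 on the B16-bearing array, against 2921 on the control array. Cyp2f2 had 1929, 1980 and 1883 on the same arrays. The median is therefore not one of hepatocyte transcripts alone. Cps1, the first enzyme of the urea cycle, had 248 on the LLC-bearing array and 41.2 on the B16-bearing array, against 49.7 on the control array, 5.00-fold above control and 6.03-fold above the B16-bearing lung. Akr1c6, an aldo-keto reductase that acts on steroids, had 83.1 on the LLC-bearing array and 27.1 on the B16-bearing array, against 23.2 on the control array. Fabp1, the liver fatty acid binding protein, had 71.7 on the LLC-bearing array, against −15.1 on the B16-bearing and 9.9 on the control array, while a dimmer probe set of Fabp1 lay under the floor throughout.

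Fbp1, an enzyme of gluconeogenesis, was at least 2.17-fold higher in the LLC-bearing lung than in either other lung. Pck1, another enzyme of that pathway, was 2.08-fold above control and 1.92-fold above the B16-bearing lung. Ces3a, a carboxylesterase, Mat1a, which makes S-adenosylmethionine, and Bhmt, which remethylates homocysteine, were higher than control by at least 1.87-fold, by 1.78-fold and by at least 1.60-fold, and did not reach 2-fold. In the B16-bearing against the control lung 1 of the 63, Cyp2c29, was at least 2-fold higher and 4 were lower (3.42% of all genes), Cyp2e1, Cyp2c38, Adh1 and Car3. Cyp2e1, a cytochrome P450 abundant in liver, had 429 on the LLC-bearing array and 127 on the B16-bearing array, against 273 on the control array. Against the B16-bearing lung 7 of the 63 were at least 2-fold higher in the LLC-bearing lung, where 3.59% of all genes were. Of these, Cyp2e1, Adh1 and Car3 are also transcribed in fat. The fat marker Adipoq was, like them, lowest in the B16-bearing lung, with 114 on the LLC-bearing array and 37.0 on the B16-bearing array, against 97.1 on the control array. Adh1, unlike Adipoq, was lower on the LLC-bearing than on the control array, at 58.1 against 115. On the fat list 2 of 7 genes, Adipoq and Fabp4, were at least 2-fold higher in the LLC-bearing than in the B16-bearing lung. Lpl and Lep went the other way, and 3 genes were below the floor on all arrays. Lpl had 351 on the LLC-bearing array and 549 on the B16-bearing array, against 427 on the control array. Lep had 126, 140 and 135 on the same arrays. The summed signal of the 7 fat genes above the floor was 838 on the LLC-bearing array and 808 on the B16-bearing array, against 872 on the control array. Their part in the enzyme counts was not tested.

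Hepatocyte receptors, transporters and transcription factors came from a list of 38 symbols, 26 with a probe set. Of these 12 were below the floor on all 3 arrays, and 0 were above it in the LLC-bearing lung alone, where 2.17% of all genes were, a share that leaves under 1 gene of 26. In the LLC-bearing against the control lung 1 was at least 2-fold higher (2.87% of all genes), Abcb4, a phospholipid transporter of the bile canaliculus, and 1 lower (2.17%), Foxa2. Abcb4 had 143 on the LLC-bearing array and 140 on the B16-bearing array, against 70 on the control array. Cebpb, a C/EBP factor of the acute-phase response, had 817 on the LLC-bearing array and 669 on the B16-bearing array, against 670.5 on the control array. Ppara and Nr1i3, nuclear receptors of fatty acid and xenobiotic metabolism, were 1.46-fold and 1.22-fold above control in the LLC-bearing lung. That Nr1i3 probe set is of a relaxed design. Another Nr1i3 probe set was 1.07-fold above control, and a further one was below the floor throughout. Hnf4a, the factor that defines hepatocyte identity, was below the floor on all 3 arrays, with −9.51 on the LLC-bearing, −21.1 on the B16-bearing and −15.9 on the control array.

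**Figure D3:**
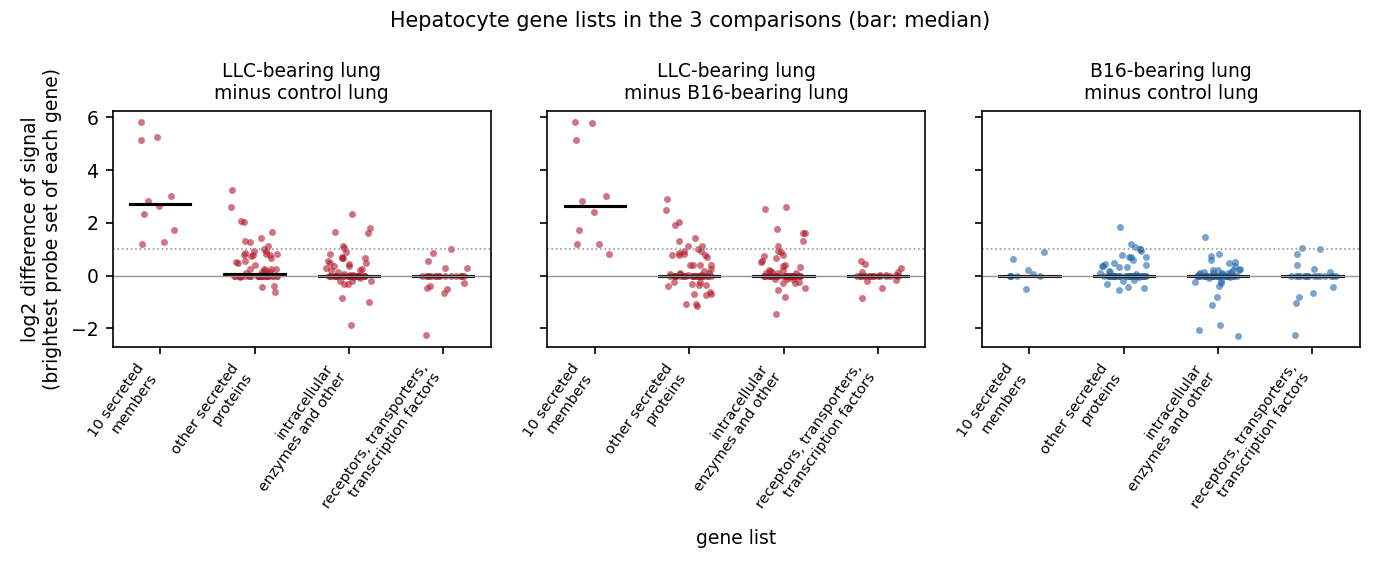
Log2 difference of the signal for the genes of 4 lists (10 secreted members, 65 other secreted, 63 intracellular and 26 receptor, transporter and transcription factor genes; 1 point per gene, black bar the median) in the 3 comparisons, 1 array per group. The dotted line is 2-fold. In the 2 panels of the LLC-bearing lung the members lie between 0.81 and 5.81, and 23, 23 and 12 genes of the other lists, below the floor on all 3 arrays, lie at 0 by construction.

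Markers of other cells were read alongside. For non-hepatocyte cells of the liver 7 of 14 listed genes had a probe set, and their summed signal above the floor was 1275 on the LLC-bearing array and 1457 on the B16-bearing array, against 1178 on the control array. Most of that sum came from genes that the control lung also held. Krt7 had 444 on the LLC-bearing array and 557 on the B16-bearing array, against 501 on the control array. Krt19 had 343, 335 and 354 and Lyve1 197, 293 and 213 on the same arrays. The sum is therefore no measure of liver cells. The Kupffer cell gene Clec4f had 79.7 on the LLC-bearing array and 80.5 on the B16-bearing array, against 7.1 on the control array. Of the 7, Clec4f and Fcgr2b were at least 2-fold above control in the LLC-bearing lung, where 2.87% of all genes were, and Fcgr2b alone was also at least 2-fold above the B16-bearing lung. Fcgr2b, an inhibitory receptor for IgG found on liver sinusoidal endothelium and on leukocytes, had 53.2 on the LLC-bearing array, against 16.2 on the B16-bearing and 9.4 on the control array, at least 2.26-fold higher than either. Its part in the members' pattern was not tested. A further Kupffer cell gene, Cd5l, had 27.1 on the LLC-bearing array, against 20.1 on the B16-bearing and 19.8 on the control array, both under the floor. Lung epithelial genes were bright in all 3 lungs, and 11 of 11 were above the floor on each array. Sftpc, a surfactant protein, had 7298 on the LLC-bearing array and 7482 on the B16-bearing array, against 6206 on the control array. In each tumour-bearing lung 0 of the 11 were at least 2-fold above control, where 2.87% (LLC-bearing) and 2.34% (B16-bearing) of all genes were. In each, 1 of the 11, Cbr2, was at least 2-fold below control, where 2.17% and 3.42% of all genes were. Cbr2, a carbonyl reductase of the airway epithelium, had 52.5 on the LLC-bearing array and 70.0 on the B16-bearing array, against 782 on the control array. The summed signal of the 11 was 23931 on the LLC-bearing array and 24242 on the B16-bearing array, against 22400 on the control array. Of 13 genes of lung endothelium, alveolar macrophages and stroma, 0 were at least 2-fold higher (2.87% of all genes) or lower (2.17%) in the LLC-bearing than in the control lung. For so few genes, counts of 0 are close to these shares. Of pancreas and gut genes 1 of 14, Cela2a, and of kidney genes 1 of 8, Kap, was at least 2-fold higher in the LLC-bearing lung than in either other lung, where 116 of all 8251 genes were. Of 17 heart and muscle genes 6 were below the floor on all 3 arrays. A difference of 2-fold or more below control was found for 9 of the 17 in the LLC-bearing lung (2.17% of all genes) and for 8 in the B16-bearing lung (3.42%), and 0 were that far above control in either.

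Genes next to the members on the chromosome were looked up in RefSeq's gene order (GRCm38.p6, used for names and order), taking 3 protein-coding genes on each side. Of 25 such genes with a probe set and outside the members, 4 were at least 2-fold higher in the LLC-bearing than in the control lung (2.87% of all genes) and 0 lower (2.17%). They were Sidt2, Serpina1e, Fgg and Fgb. Sidt2 had 273 on the LLC-bearing array and 329 on the B16-bearing array, against 136 on the control array, so it did not share the pattern of the members. The Serpina1e probe set is of a family design, so its signal may include that of the alpha-1-antitrypsin members. Beside Apoc1 on chromosome 7, Apoe had 1484 on the LLC-bearing array and 1569 on the B16-bearing array, against 1266 on the control array, and Apoc4 had 40.2 on the LLC-bearing array, against −19.5 on the B16-bearing and 7.9 on the control array. Beside Apoa1 on chromosome 9, Apoa4 was below the floor in all 3 lungs and Apoa5 had 198 on the LLC-bearing array and 235 on the B16-bearing array, against 112 on the control array. Beside Alb on chromosome 5, Afp was above the floor in the B16-bearing lung alone, at 30.6.

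The RefSeq table held 9 promoters for 8 of the 10 members, each of 250 bases before to 50 after the start, and none was matched for Apoc1 and Mup5. Motifs were searched on both strands. GTTAAT, the HNF1 core, was found in 4 of the 9 (Alb, Fga, Serpina1b and Serpina1c), against 7.10% of all 32851 promoters. In those 4 it lay within the 43 bases before the start. TTGCNNAA, a C/EBP motif, was found in 5 of the 9 (Alb, Fga, Serpina1b, Ahsg and 1 of the 2 Apoa2 promoters), against 10.8% of all promoters. TATAAA was found in 1 of the 9, against 13.6%, and CAAAGTCCA, an HNF4 motif, in 0 of the 9, against 0.475%. No match of 1 motif overlapped a match of another in these promoters. Among 77 promoters of the other secreted genes the HNF1 core was in 23.4% and the C/EBP motif in 31.2%. A match describes the letters and is no evidence of binding, and the members with copies of the same sequence are not independent.

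**Figure D4:**
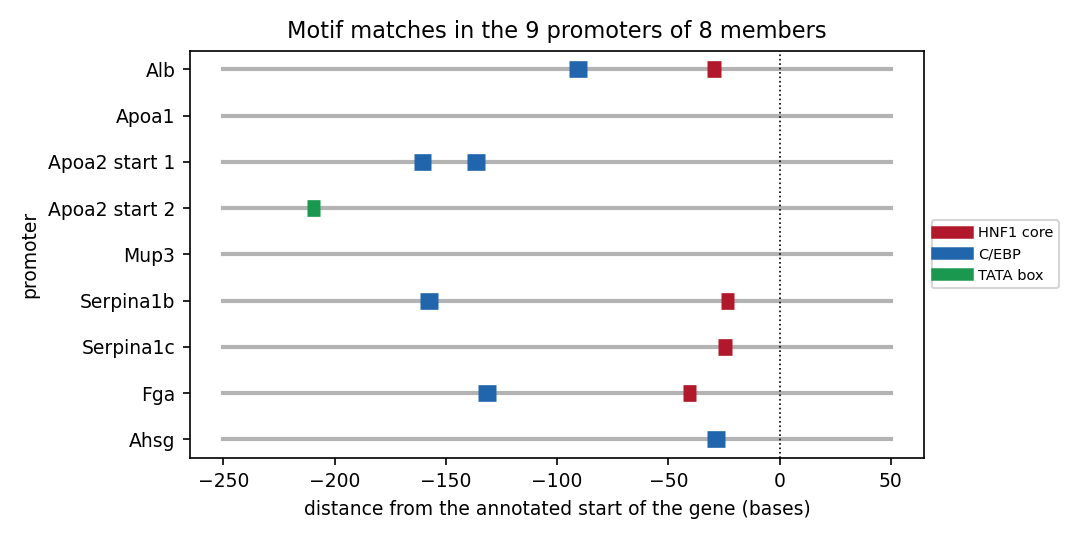
Positions of motif matches in the 9 promoters of 8 members, as distance in bases from the annotated start (dotted line), with grey lines for the 250 bases before to 50 after it. The HNF1 core lies between 43 and 21 bases before the start in Alb, Serpina1b, Serpina1c and Fga, and the promoters of Apoa1 and Mup3 hold none of the motifs.

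Outside these 4 lists, the genes most like the members were ranked by the smaller of the log2 differences of the LLC-bearing lung from the control and from the B16-bearing lung, over 3 arrays. Among all 8251 genes, 5 of the first 10 by this measure were members (Alb, Mup5, Mup3, Fga and Apoa1), and 2 more were of the other hepatocyte lists (Hpx and Serpina1e, the latter on a family design). The members were chosen for a high signal in the LLC-bearing lung, so their high ranks follow from that choice. The members reached rank 181 with Apoa2. Of the 8 genes most like them outside the lists, Dct, an enzyme of melanin synthesis, ranked 4th with 196 on the LLC-bearing array, against −34.1 on the B16-bearing and −14 on the control array. Of the 5 melanocyte genes with a probe set it was the only one at least 2-fold above control, and Pmel, another pigment cell gene, had 40.7 on the LLC-bearing array and 78.6 on the B16-bearing array, against 85.9 on the control array. Ccr2, a chemokine receptor of monocytes, had 294 on the LLC-bearing array and 27.8 on the B16-bearing array, against 46.8 on the control array. Ccl8, a chemokine, had 117 on the LLC-bearing array and 15.9 on the B16-bearing array, against 24.1 on the control array. Pzp, a plasma protease inhibitor of the alpha-2-macroglobulin family that mouse liver secretes, was not on the lists and had 140 on the LLC-bearing array and 29.1 on the B16-bearing array, against 24.7 on the control array. Plac8 had 1442 on the LLC-bearing array and 320 on the B16-bearing array, against 304 on the control array. Gja4, a connexin of arterial endothelium, was at least 5.76-fold, Gon4l at least 5.53-fold and Mpp7 at least 4.08-fold higher in the LLC-bearing lung than in either other lung.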

How the data were processed

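Total RNA from frozen lung was isolated with TRIzol and made into biotinylated cRNA for Affymetrix arrays, per the labels' protocols. The deposited values are linear intensity values, 1 per probe set and array. About 20.2% to 21.0% are negative, which shows background subtraction. Array software and summarisation are not stated by the labels. Groups came from titles, and from the source name for the control lung.

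Of 12488 probe sets, 66 manufacturer controls were left out. GEO's platform annotation gave 1 symbol for 10833 of the others, several for 396 and none for 1193. Each array was scaled by 1 factor (1.01 for LLC-bearing, 0.987 for B16-bearing, 1 for control) that set the median log2 ratio to control to 0 over the brighter probe sets. The floor, the bounds and the 2-fold call are given with the results. A gene took its brightest probe set. Scripts used Python 3.11.15, numpy 2.4.6 and pandas 2.3.3 and were tested on simulated arrays with planted changes. Those changes were planted in bright probe sets only, so bounds against the floor were not tested.

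The members and lists were chosen with earlier results of these data known. The text names every member. Of each list it names the genes with the largest smaller difference of the LLC-bearing lung from the other lungs (10, 8 and 4 genes), the 3 other secreted genes with the highest control signal and the 8 most similar genes outside the lists. Others were named after their values were seen. Arrays carry no read depth, and their number limits the precision.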

Additional observations from a re-analysis of the deposited data

Results flagged for a closer look

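In the family-design probe sets of Mup3 and Mup5 the LLC-bearing lung lay above the control lung and the B16-bearing lung below it. The LLC-bearing minus B16-bearing log2 differences were 4.91 for Mup3 and 5.78 for Mup5. The B16-bearing signals, 21.8 and 8.1, were below the floor and the control signals, 27.4 and 33.7, just above it. The difference between the models was not tested, since there is 1 array per group. The second Mup3 probe set was below the floor in both the B16-bearing and the control lung.

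There were 3 further probe sets that the annotation assigns to several alpha-1-antitrypsin genes at once, so they are no part of the members. In the LLC-bearing against the control lung they were 10.1-fold, 5.09-fold and 6.18-fold higher. Their signals were 472, 544 and 886 in the LLC-bearing lung, 52.2, 130 and 166 in the B16-bearing lung and 46.7, 106.8 and 143.4 in the control lung.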

How the results depend on the processing

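No paired analysis was possible because each group has 1 array, and leaving out a replicate was not possible for the same reason. Under no scaling factor, factors from all probe sets above the floor or quantile normalization, the counts of members, other secreted and intracellular genes stayed within 1.5 times those reported, except for 1 count. With the mean of a gene's probe sets the counts of other secreted and intracellular genes did too, and member probe sets are not affected by that choice. With quantile normalization 1 member probe set, of Apoa2, was at least 2-fold higher in the B16-bearing than in the control lung (2.02-fold), where 0 were reported. The floor mattered more. Raising the floor to the 60th percentile gave a median log2 difference of the members from control of 1.89. Under that floor 3 other secreted genes and 1 intracellular gene were at least 2-fold higher, where 0.749% of all probe sets were. With a floor of 100 the median was 1.80, and 2 other secreted genes and 1 intracellular gene were at least 2-fold higher. Under it 8 member probe sets exceeded 2-fold in the LLC-bearing against the control lung, where 0.451% of all probe sets did. At a threshold of 4-fold, 4 other secreted genes and 1 intracellular gene were called, where 0.467% of all probe sets were. These shares are over probe sets, while the secreted and intracellular counts are over genes, each by its brightest probe set. Without family, shared and relaxed-rule probe sets, an alternative chosen after seeing the data, 7 member probe sets exceeded 2-fold against the control and 6 against the B16-bearing lung, of 7 left. The Alb log2 difference from control ran from 3.73 to 5.81 over the alternatives, that of Apoc1 from 1.24 to 1.26 and that of Serpina1c from 2.32 to 3.98. Those of Apoa2 and Ahsg were 0 with a floor of 100, where neither was measured. Where the control signal was below the floor in use, as for Alb throughout, the value is a lower bound that falls as the floor rises. No member's difference from control was below 0 under any alternative run. The members were chosen for a high signal in the LLC-bearing lung. A control signal below the floor also cannot give a difference below 0, so this result supports nothing by itself.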
